A study of Mus musculus with 22 samples.

Results

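Genes of the enteric nervous system were followed through bulk RNA sequencing of the mouse small intestine. The set holds 8 genes, 5 known chiefly from enteric neurons (Elavl4, Ret, Uchl1, Vip and Nos1) and 3 known chiefly from enteric glia (S100b, Sox10 and Gfap). They were chosen by name and matched through their Ensembl identifiers, and all 8 were found among the 54838 genes of the count table. A level is given below as normalised CPM, which is the read count of a gene scaled by the size of its library, with the TMM correction for composition.

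The study asked how zinc in the drinking water acts on the gut of mice with a normal or an impaired glucocorticoid receptor (GR). All 22 libraries came from adult female FVB/N mice kept in a conventional animal house. GRWT mice carried 2 normal copies of the receptor gene and GRDim mice were homozygous for a point-mutant receptor that dimerises poorly, in every cell of the body and from birth. Both came from intercrosses of carriers. For 7 days they were given either normal drinking water or water holding 25 mM ZnSO4.

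The 4 conditions held 5 libraries (GRWT, normal water), 5 (GRWT, zinc), 6 (GRDim, normal water) and 6 (GRDim, zinc). By their labels 12 libraries were of ileum and 10 were of IEC. The paper describes IEC samples as material scraped from the inside of the distal ileum after lysis buffer, and the labels do not say which layers the ileum samples held. Because 1 column name in the counts stands for 2 GRDim water ileum libraries, they are called unnumbered libraries a and b. The series title also names dexamethasone, which no sample label mentions.

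The tissue labels and the muscle content of the libraries did not go together. Myh11, the heavy chain of smooth-muscle myosin, lay between 298 and 463 CPM in 12 libraries and between 3.22 and 20.5 CPM in the other 10, and the cut at 100 CPM separated them. Of the 12 muscle-rich libraries 7 were labelled IEC, which the defining markers of smooth muscle contradict, and of the 10 muscle-poor libraries 7 were labelled ileum. Each condition had 3 muscle-rich libraries. The GRWT ones mixed both labels (1 ileum and 2 IEC on water, and 1 ileum and 2 IEC on zinc), whereas the GRDim ones were all IEC on water and all ileum on zinc. Zinc and the tissue label cannot be told apart within muscle-rich GRDim libraries. Depth was similar throughout, with 13149951 to 15620744 counts a library. GRWT zinc ileum replicate 3, a muscle-poor library, stood apart with a TMM factor of 0.643, and the Ret values that rest on it are also given without it.

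The enteric nervous system lies in a pair of nerve networks, the myenteric plexus between the muscle layers and the submucosal plexus beneath the mucosa, with finer fibres and glia reaching into the villi. The transcripts of a nerve cell sit mostly in its cell body, so a piece of gut yields them according to how much of the wall it holds. Ret is the receptor through which GDNF and related ligands keep enteric neurons and their precursors alive, and vasoactive intestinal peptide (Vip) and nitric oxide from neuronal nitric oxide synthase (Nos1) are the main transmitters that relax gut muscle.

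The upstream sequences of the members that differed by genotype or stood clearest between conditions are shown first. They are the 250 bases before the annotated start of Vip, S100b and Uchl1, from RefSeq on build GRCm38.p6, read 5′ to 3′ on the plus strand. They were searched on both strands for the letters TGACG, or CGTCA as the opposite strand reads, the half-site of the cAMP response element, and for the letters AGAACA, or TGTTCT as the opposite strand reads, a half-site of the glucocorticoid response element, and matches are in capitals.

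Vip, chr10:5638968-5639217: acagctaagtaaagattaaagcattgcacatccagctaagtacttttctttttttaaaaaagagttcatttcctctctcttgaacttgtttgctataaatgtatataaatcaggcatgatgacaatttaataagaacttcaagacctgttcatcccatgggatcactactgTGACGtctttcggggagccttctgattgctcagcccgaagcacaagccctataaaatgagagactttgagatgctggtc
S100b, chr10:76253586-76253835: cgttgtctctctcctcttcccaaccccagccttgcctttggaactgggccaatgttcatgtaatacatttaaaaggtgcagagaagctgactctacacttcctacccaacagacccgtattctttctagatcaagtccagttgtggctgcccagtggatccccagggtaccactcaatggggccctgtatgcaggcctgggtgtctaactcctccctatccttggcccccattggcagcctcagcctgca
Uchl1, chr5:66675871-66676120: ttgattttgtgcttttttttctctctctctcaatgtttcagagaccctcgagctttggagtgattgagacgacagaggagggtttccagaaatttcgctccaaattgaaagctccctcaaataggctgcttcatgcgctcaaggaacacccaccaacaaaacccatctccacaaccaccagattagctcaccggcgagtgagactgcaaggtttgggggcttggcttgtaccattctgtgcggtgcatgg

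Vip held 1 match to TGACG, 79 bases before its start, and none to AGAACA. S100b and Uchl1 held neither set of letters in this window. Among all 32851 upstream windows of the same length in the table, 17.8% held TGACG and 16.1% held AGAACA. Of the 8 members 6 had an entry, and Ret and Sox10 had none.

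The level of the enteric genes depended first on the muscle content of the library. The split was made on measured values, so the levels on its sides are a description and carry no test. Of the 8 members 7 had ranges that did not overlap between muscle-rich and muscle-poor libraries and were higher in the muscle-rich ones, against 15.8% of the 16389 genes compared. The same 7 were at least 8-fold higher, against 9.96% of all genes. The median log2 ratio of the levels was 4.95 over the members and 0.01 over all genes.

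Vip (ENSMUSG00000019772, chr10:5639218-5647617 on GRCm38) had the widest gap. It ran from 9.82 to 29.1 CPM in the 12 muscle-rich libraries, with a median of 18.6, and its reads in the 10 muscle-poor libraries came to 4 in all, against 3518. The ratio of the pooled levels was 709, with a 95% counting interval of 277 to 2603. Nos1 (ENSMUSG00000029361, chr5:117781032-117958840), the synthase of the nitrergic neurons, averaged 2.08 ± 0.426 CPM (SD, n = 12) in muscle-rich libraries and had 7 reads in the muscle-poor ones. Its exons overlap the antisense gene Gm26995, and whether the counting used strand is not given in the sources used here.

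Elavl4 (ENSMUSG00000028546, chr4:110203722-110351909), an RNA-binding protein found across neuron types, averaged 3.24 ± 0.843 CPM (SD, n = 12) in muscle-rich libraries. It had 17 reads in the 10 muscle-poor libraries together, a pooled ratio of 28.7 with an interval of 17.8 to 49.6. Uchl1 (ENSMUSG00000029223, chr5:66676091-66687234), the abundant neuronal ubiquitin hydrolase also known as PGP9.5, averaged 5.80 ± 1.26 CPM against 24 reads, a pooled ratio of 36.2 with an interval of 24.2 to 56.7. Exons of Uchl1 overlap Uchl1os on the opposite strand.

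The 3 glial genes were low everywhere and nearly absent from muscle-poor libraries. S100b (ENSMUSG00000033208, chr10:76253853-76261159), a calcium-binding protein of glia, averaged 1.02 ± 0.406 CPM (SD, n = 12) in muscle-rich libraries and had 2 reads in the muscle-poor ones, both in 1 library. Gfap (ENSMUSG00000020932, chr11:102887336-102900912), the intermediate filament of astrocytes and of a share of enteric glia, averaged 0.761 ± 0.280 CPM and had 3 reads in the muscle-poor libraries. Sox10 (ENSMUSG00000033006, chr15:79154908-79165240), a transcription factor of the neural crest that glia retain, averaged 0.812 ± 0.321 CPM and had no read in any of the 10. With a floor of 3 counts over the group, Sox10 was at least 40.6-fold higher in muscle-rich libraries. Intervals and floors cover counting error only.

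Ret (ENSMUSG00000030110, chr6:118151745-118197718) was the exception. It averaged 9.66 ± 2.73 CPM (SD, n = 12) in muscle-rich libraries and 8.25 ± 9.90 CPM (SD, n = 10) in muscle-poor ones, and the ranges overlapped. Its pooled ratio was 1.52, with an interval of 1.41 to 1.65. Without GRWT zinc ileum replicate 3, which held 328 of the muscle-poor Ret reads, the muscle-poor level was 5.28 ± 3.37 CPM (SD, n = 9) and the pooled ratio 2.08, with an interval of 1.90 to 2.29. The ranges overlapped without it too, and the other 7 members stayed apart. The muscle-poor libraries held 948 Ret reads, against 17 for Elavl4 and 0 for Sox10.

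**Figure D1:**
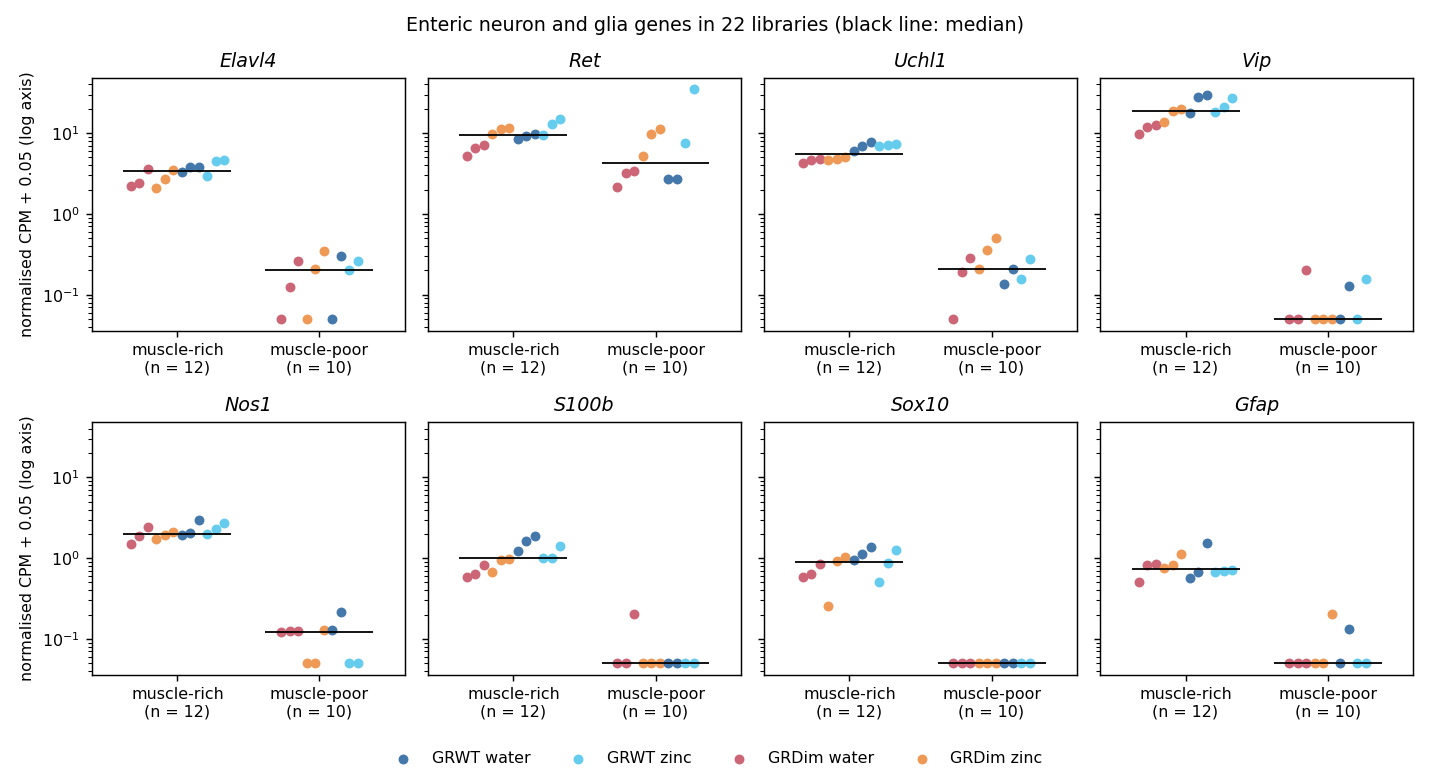
Normalised CPM plus 0.05 of the 8 enteric neuron and glia genes, on a log axis, in 12 muscle-rich and 10 muscle-poor libraries, with 1 point for each library coloured by condition and a black line at the median. The groups are apart for every gene but Ret, whose muscle-poor points reach from 2.12 to 34.9 CPM.

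Per kilobase of exon, the order of mean levels in muscle-rich libraries was Vip (5.57 CPM per kb), Uchl1 (3.55), Ret (1.43), S100b (0.687), Elavl4 (0.601), Sox10 (0.266), Nos1 (0.187) and Gfap (0.180). The ranges of neighbouring genes in this order were not tested against each other, and Nos1 and Gfap were nearly level. The fold range of each gene's CPM over the 12 libraries was smallest for Uchl1, at 1.83, and largest for Sox10, at 6.26, whose counts ran from 3 to 20 a library.

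Several other cell types of the gut wall split the libraries in the same way, but not all did. Apart from Myh11, whose level made the split, the other smooth-muscle genes of a list of 10, all 6 fibroblast genes, all 5 endothelial genes and all 5 macrophage genes had ranges apart and higher in muscle-rich libraries, with median log2 ratios of 5.49 (Myh11 included), 4.96, 6.34 and 4.35. None of the 10 epithelial genes and none of the 10 enteroendocrine genes did, with medians of -0.52 and -0.12. Of 4 genes of interstitial cells of Cajal 3 were apart and higher in muscle-rich libraries, with a median of 1.77. None of 4 mesothelial and none of 4 Schwann cell myelin genes was apart, with medians of 0.38 and 0.04. In bulk tissue, fewer cells of a type and less RNA per cell cannot be told apart. No defining marker of smooth muscle was at 0 in every muscle-poor library.

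A wider list of 22 enteric neuron genes behaved like the members for the most part, with 13 of 22 apart and higher in muscle-rich libraries. Gal, the neuropeptide galanin, had 1069 reads against 7. Tac1, the precursor of substance P, did not follow them. Its level was 15.3 ± 6.09 CPM (SD, n = 12) in muscle-rich and 15.7 ± 8.02 CPM (SD, n = 10) in muscle-poor libraries. Of 12 other glial genes 6 were apart and higher in muscle-rich libraries, among them Cdh19 with 349 reads against 1, while Erbb3, L1cam and Entpd2 were as high or higher in the muscle-poor ones. Of 10 genes for Ret ligands, the endothelin ligand and their receptors 4 were apart, including Gdnf, the main ligand of Ret in the gut, at 434 reads against 0, and Ednrb, the endothelin receptor of enteric precursors, at 7252 against 30.

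Since the muscle-poor libraries held almost no reads of the members beside Ret, zinc and genotype were compared within the 12 muscle-rich libraries, 3 for each condition. The tests are those of edgeR's quasi-likelihood model over 15947 genes, with Benjamini-Hochberg adjustment over all of them. A gene was called where the adjusted p was under 0.05 and the log2 fold change beyond 0.8 in either direction, and for the interaction the adjusted p alone decided. All 8 members passed the filter on low counts.

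**Figure D2:**
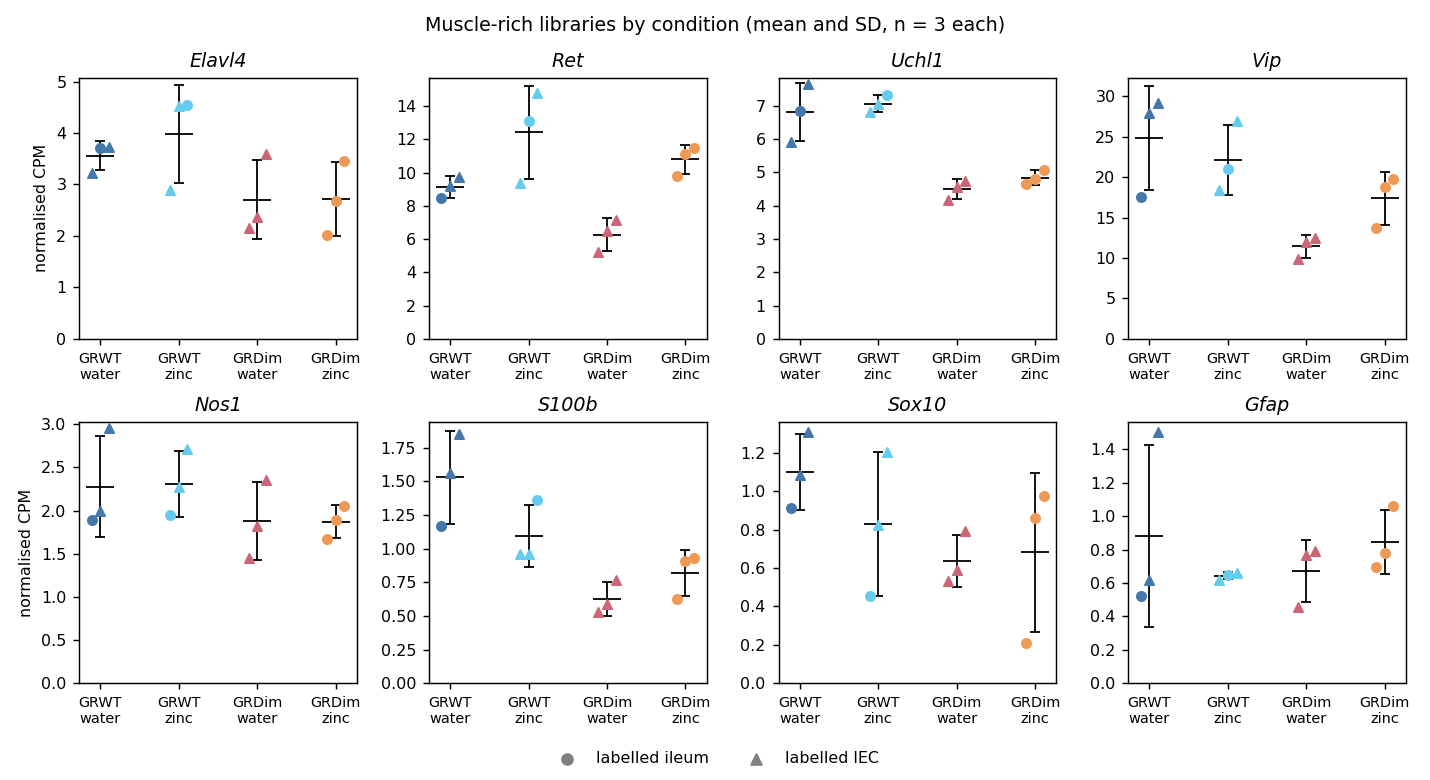
Normalised CPM of the 8 genes in the 12 muscle-rich libraries by condition, with 1 point for each library (circles labelled ileum, triangles labelled IEC), a line at the mean and bars of 1 SD (n = 3). The GRDim water points of Vip, S100b, Uchl1, Ret and Sox10 all lie below the GRWT water points.

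On normal water Vip and S100b were lower in GRDim than in GRWT mice. They are 2 of 8 members called, both lower, where 10.5% of all genes tested were called (5.47% of all genes lower and 5.02% higher). All 8 members had a negative log2 fold change, with a median of -0.56 against -0.00 over all genes. The ranges of 5 members did not overlap and were lower in GRDim mice (Ret, Uchl1, Vip, S100b and Sox10), where 27.2% of the 16389 genes were apart and lower.

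Vip was at 17.5, 27.9 and 29.1 CPM in the 3 GRWT water libraries and at 9.82, 11.96 and 12.5 CPM in the 3 GRDim water libraries. Every GRDim library lay below every GRWT library. The log2 fold change was -1.10 ± 0.22 (SE), with an adjusted p of 0.00325 by edgeR. The lowest GRWT value, 17.5 CPM, came from the 1 library labelled ileum, and the fit with the tissue label added gave -1.21 with an adjusted p of 0.00116.

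S100b was at 1.17, 1.57 and 1.86 CPM in GRWT water libraries and at 0.528, 0.587 and 0.766 CPM in GRDim water libraries, again without overlap. These levels rest on 18 to 27 reads a library in GRWT and 8 to 13 in GRDim mice. Its log2 fold change was -1.25 ± 0.30 (SE), with an adjusted p of 0.00376 by edgeR. The other glial genes pointed the same way without passing the test. Sox10 was at 0.911 to 1.31 CPM against 0.530 to 0.791 CPM (log2 fold change -0.77 ± 0.44, adjusted p = 0.178 by edgeR), and Gfap at 0.520 to 1.51 CPM against 0.457 to 0.791 CPM (-0.39 ± 0.40, adjusted p = 0.47). Without GRWT water IEC replicate 4, which held the 1.51 CPM, the Gfap value was 0.25.

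Among the neuronal genes, Uchl1 and Ret had adjusted p-values under 0.05 and fold changes short of the threshold. Uchl1 was at 5.91, 6.83 and 7.65 CPM in GRWT water libraries and at 4.18, 4.57 and 4.75 CPM in GRDim water libraries, a log2 fold change of -0.58 ± 0.13 (SE) with an adjusted p of 0.00298 by edgeR. Ret was at 8.46, 9.21 and 9.76 CPM against 5.22, 6.46 and 7.13 CPM, a change of -0.53 ± 0.16 with an adjusted p of 0.0174 by edgeR. Both genes were without overlap. Elavl4 ran from 3.23 to 3.73 CPM in GRWT and from 2.15 to 3.59 CPM in GRDim water libraries (log2 fold change -0.38 ± 0.24, adjusted p = 0.237 by edgeR). Nos1, the other inhibitory transmitter gene, ran from 1.89 to 2.95 CPM against 1.45 to 2.36 CPM (-0.26 ± 0.24, adjusted p = 0.41).

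The smooth-muscle level moved with this comparison. The summed CPM of the 10 smooth-muscle genes was 2484 to 2729 in GRWT water and 1903 to 2142 in GRDim water libraries. All 10 had a negative log2 fold change, with a median of -0.40, and 6 of them had an adjusted p under 0.05, though none was called. With the log2 smooth-muscle level as a covariate Vip was at -0.97 ± 0.32 (SE) with an adjusted p of 0.0556 by edgeR. S100b was at -1.01 ± 0.42 with an adjusted p of 0.0871. Neither was called, where 9.00% of all genes were. Both changes stayed beyond the fold threshold, and their SEs were larger than without the covariate. Uchl1 was at -0.66 with an adjusted p of 0.0151 in the covariate fit, Ret at -0.40 with an adjusted p of 0.191, and Sox10 at -0.07. The summed level of the other cell types is mixed. Enteroendocrine genes were lower in GRDim water libraries (322 to 332 against 508 to 533 CPM, 3 of 10 called lower), fibroblast genes were level (573 to 638 against 500 to 695 CPM), and mesothelial genes were at 11.7 to 19.0 against 19.2 to 27.5 CPM. The 10 epithelial genes summed to a lower level in GRDim water libraries without overlap (19831 to 21288 against 22027 to 23173 CPM), with 7 under an adjusted p of 0.05 by edgeR, 1 called, lower, and 5 of the log2 fold changes on each side of 0. The 4 genes of Schwann cell myelin were at 687 to 738 against 873 to 1078 CPM, and none of the 3 that were tested was called. The part of these cell types in the result was not tested beyond the covariate.

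Set against muscle directly, the 7 members other than Ret summed to 15.9 ± 2.67 CPM per 1000 CPM of smooth-muscle genes in GRWT water (SD, n = 3) and to 11.02 ± 0.581 in GRDim water libraries. The values ran from 13.1 to 18.4 and from 10.6 to 11.7, and did not overlap. On zinc they were 18.7 ± 0.822 in GRWT and 15.5 ± 2.83 in GRDim libraries. Vip is the highest of the 7 genes in this sum. On the same scale Vip alone ran from 7.04 to 11.1 in GRWT water and from 5.16 to 5.85 in GRDim water libraries. S100b was apart too, at 0.471 to 0.680 against 0.274 to 0.370, whereas Uchl1 overlapped, at 2.17 to 3.04 against 2.02 to 2.49.

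**Figure D3:**
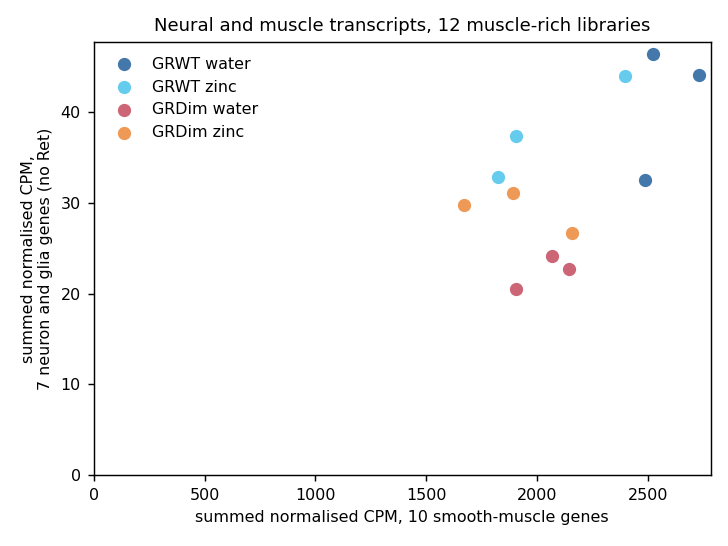
Summed normalised CPM of the 7 enteric genes other than Ret against that of 10 smooth-muscle genes, both on linear axes from 0, with 1 point for each of the 12 muscle-rich libraries coloured by condition. The 3 GRDim water libraries lie lowest, at 20.5 to 24.2 CPM, although their smooth-muscle level of 1903 to 2142 CPM overlaps that of both zinc groups.

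On zinc no member was called for genotype, where 4.40% of genes were. At an unadjusted p under 0.05 there were 2 of 8 members by edgeR and 1 by DESeq2, against 32.1% and 26.8% of genes. Of the 8 log2 fold changes 7 were negative, with a median of -0.34 against -0.02 over all genes. Uchl1 was at 6.81, 7.04 and 7.32 CPM in GRWT zinc libraries and at 4.64, 4.80 and 5.08 CPM in GRDim zinc libraries, apart again. Uchl1 and S100b were the 2 members apart and lower, against 16.3% of the genes. The Uchl1 change of -0.56 ± 0.13 (SE) had an adjusted p of 0.00915 by edgeR, short of the fold threshold, and its size was close to that on water. Vip was at 18.4, 21.1 and 26.9 CPM against 13.7, 18.8 and 19.7 CPM, which overlap (-0.36 ± 0.22, adjusted p = 0.289 by edgeR). S100b was at 0.963, 0.963 and 1.36 CPM against 0.625, 0.912 and 0.929 CPM (-0.42 ± 0.30, adjusted p = 0.362 by edgeR). Elavl4 ran from 2.89 to 4.54 CPM in GRWT and from 2.02 to 3.45 CPM in GRDim zinc libraries (-0.57 ± 0.24, adjusted p = 0.114).

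Gfap was the 1 member with a higher mean in GRDim zinc libraries. It was at 0.619 to 0.662 CPM in GRWT and 0.695 to 1.06 CPM in GRDim zinc libraries, from 9 to 11 and 10 to 16 reads (log2 fold change 0.38 ± 0.41, adjusted p = 0.568 by edgeR). The comparisons on water and on zinc share no libraries.

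In GRWT mice no member was called for zinc, where 0.163% of genes were called. At an unadjusted p under 0.05 there was 1 of 8 members by edgeR, Ret, and 1 by DESeq2, against 11.5% and 8.39% of genes. Ret was at 8.46, 9.21 and 9.76 CPM on water and 9.36, 13.1 and 14.8 CPM on zinc, with an overlap at the low end of the zinc libraries. Its log2 fold change was 0.45 ± 0.15 (SE), with an adjusted p of 0.272 by edgeR. The other members split evenly enough that the median of all 8 was -0.07 against 0.01 over all genes. Their 95% intervals show what the design could not detect. That of Uchl1 was -0.22 to 0.34 and that of Vip -0.63 to 0.32, whereas that of Sox10 was -1.28 to 0.50.

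In GRDim mice no member was called for zinc either, where 1.33% of genes were called, and 2 of 8 members were under an unadjusted p of 0.05 in both edgeR and DESeq2, against 22.7% and 18.4% of genes. Ret was at 5.22, 6.46 and 7.13 CPM on water and 9.82, 11.1 and 11.5 CPM on zinc. Its libraries were apart and its log2 fold change was 0.76 ± 0.16 (SE), with an adjusted p of 0.0107 by edgeR, so that only the fold threshold kept it from being called. Vip was at 9.82, 11.96 and 12.5 CPM on water and 13.7, 18.8 and 19.7 CPM on zinc, apart as well, with a change of 0.58 ± 0.23 and an adjusted p of 0.16 by edgeR. Those 2 of 8 members were apart and higher, against 17.1% of the genes. S100b (0.36 ± 0.32), Gfap (0.31 ± 0.40) and Sox10 (0.10 ± 0.47) had positive values within their errors, and Elavl4 (-0.02 ± 0.25), Nos1 (-0.03 ± 0.24) and Uchl1 (0.09 ± 0.14) lay near 0.

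With the tissue label added, where the label is estimated from the GRWT libraries alone, Ret in GRDim mice was at 0.77 with an adjusted p of 0.118 by edgeR and Vip at 0.97 with an adjusted p of 0.124. With the smooth-muscle level added Ret was at 0.82 with an adjusted p of 0.0163, and was called, where 0.934% of genes were. Leaving out GRDim water IEC replicate 6 or GRDim zinc ileum replicate 3 also brought it past the fold threshold, at 0.86 and 0.83. Leaving out GRDim water IEC replicate 4 or GRDim zinc ileum replicate 2 took it above the adjusted p of 0.05, at 0.65 with an adjusted p of 0.0561 by edgeR and at 0.72 with 0.0567.

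**Figure D4:**
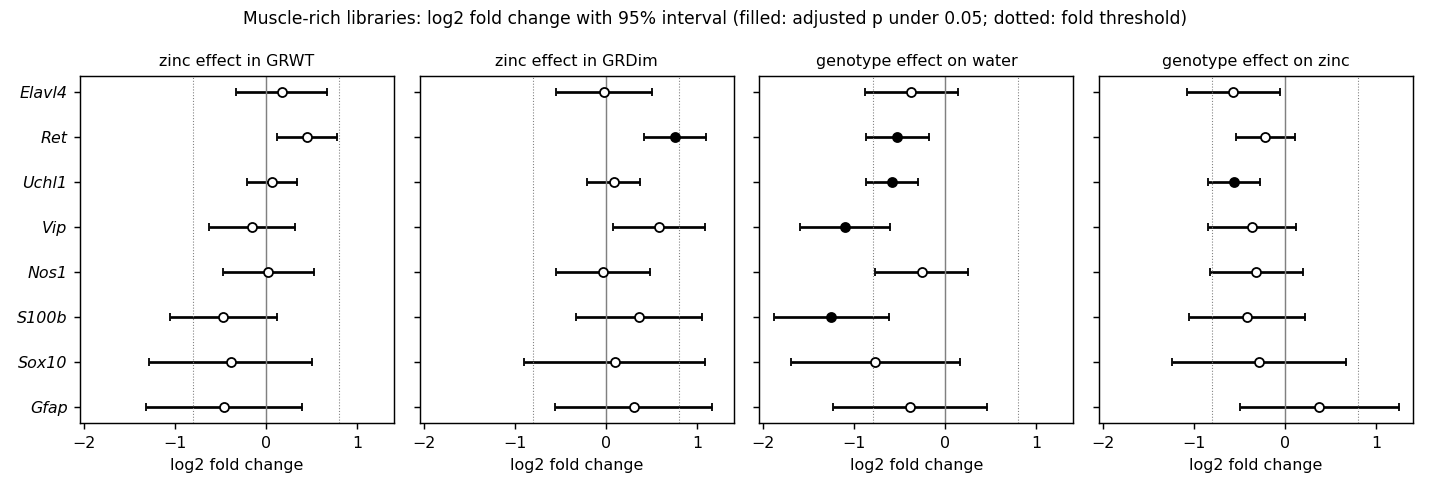
Log2 fold change (edgeR) of the 8 genes in the 4 comparisons within muscle-rich libraries, with 95% intervals, filled points for an adjusted p under 0.05 and dotted lines at the fold threshold of 0.8. In the genotype comparison on water all 8 points lie below 0 and those of Vip and S100b pass the dotted line.

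The zinc effect was not shown to differ between genotypes for any member. The interaction was called for 0 of 8 members by edgeR, where 0.263% of genes were called, and 1 member had an unadjusted p under 0.05 in edgeR and 1 in DESeq2, against 15.5% and 12.1% of genes. It was at 0.83 ± 0.42 (SE) for S100b with an adjusted p of 0.363 by edgeR, at 0.77 ± 0.57 for Gfap with an adjusted p of 0.544, and at 0.74 ± 0.31 for Vip with an adjusted p of 0.301 and a 95% interval of 0.04 to 1.44. For Ret it was 0.31 ± 0.22, with an interval of -0.16 to 0.78. For Uchl1 it was 0.03 ± 0.19.

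Ret could also be followed in the muscle-poor libraries, where it was the only member above the filter. It was at 2.69 and 2.68 CPM in the GRWT water libraries and at 7.58 and 34.9 CPM in the GRWT zinc libraries, the latter being the library that stands apart. It was at 3.32, 3.13 and 2.12 CPM in GRDim water and 9.79, 11.05 and 5.22 CPM in GRDim zinc libraries. Zinc values lay above water values in both genotypes without overlap. The share of all genes apart in this way was not counted for the muscle-poor libraries, so the separation has no background to be set against. Over these 10 libraries neither change was called, at 3.00 ± 0.68 (SE) with an adjusted p of 0.228 in GRWT and 1.61 ± 0.54 with an adjusted p of 0.523 in GRDim mice by edgeR, where 0.0431% and 0.0575% of 13908 genes were called.

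Without GRWT zinc ileum replicate 3, Ret in GRDim mice was at 1.62 ± 0.27 (SE) with an adjusted p of 0.00769 by edgeR and was called, where 1.43% of 14339 genes were. The GRWT value was then 1.49 ± 0.40 with an adjusted p of 0.212, from 1 zinc library that is assumed to vary like the others, where 0.181% of genes were called. Without GRWT zinc ileum replicate 2 instead, the library that stands apart is the only GRWT zinc library, and 30.1% of 14492 genes were called for zinc in GRWT mice, Ret at 3.73 with an adjusted p of 6.18e-06 by edgeR among them. Ret in GRDim mice was also called in that fit, at 1.61 with an adjusted p of 0.00927, where 1.43% of genes were. Within muscle-poor GRDim libraries zinc again coincides with the tissue label, in the opposite direction, since the water libraries are labelled ileum and the zinc libraries IEC. The 2 changes, 0.76 and 1.61 on the log2 scale, were not called in the fits of all 12 and all 10 libraries, the first by the fold threshold and the second by the adjusted p.

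**Figure D5:**
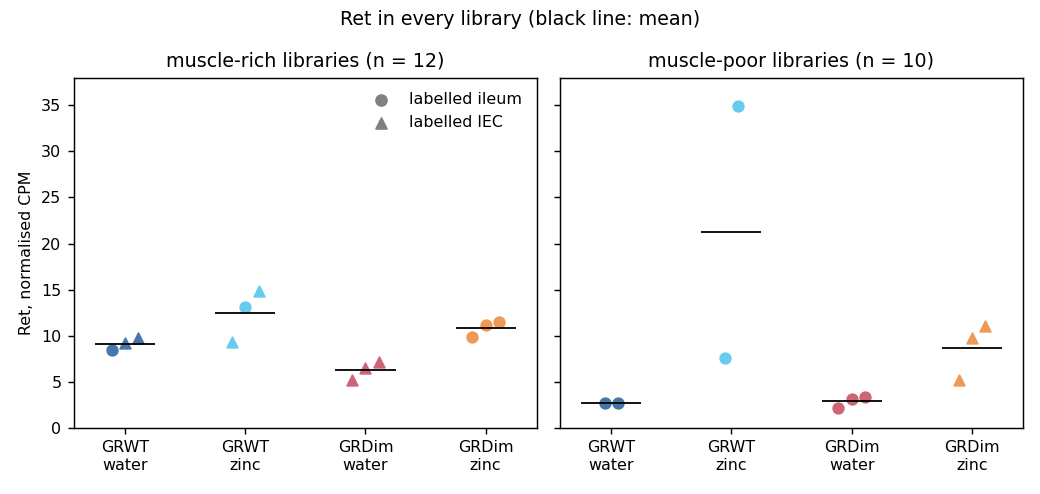
Normalised CPM of Ret in every library, with 12 muscle-rich libraries on the left and 10 muscle-poor libraries on the right, by condition (circles labelled ileum, triangles labelled IEC) and with black lines at the mean. The zinc points lie above the water points in each genotype apart from 1 muscle-rich GRWT zinc library at 9.36 CPM, and the muscle-poor GRWT zinc mean is drawn up by 1 library at 34.9 CPM.

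Genes that act beside the members were read from wider lists, of which called members are named. On water, 5 of 19 other enteric neuron genes tested were called lower in GRDim mice and 1 higher, with a median log2 fold change of -0.61. Dbh, the enzyme that makes noradrenaline, was at 2.79 ± 0.913 CPM (SD, n = 3) in GRWT water and 0.980 ± 0.393 CPM in GRDim water libraries, a change of -1.48 ± 0.34 (SE) with an adjusted p of 0.00344 by edgeR. The neurofilament gene Nefm (-1.15), the granin Scg2 (-0.92), Gal (-0.91) and the peripheral neuron filament Prph (-0.85) were the other genes called lower. With 1 library left out, Dbh and Scg2 were called in 12, Gal and Prph in 11 and Nefm in 9 of 12 fits, and Nefm was not called with the tissue label added. Scg2 kept its call with the smooth-muscle level added, at -0.87, whereas Dbh (-0.94), Nefm (-0.97), Gal (-0.56) and Prph (-0.43) lost theirs.

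Tac1 went the other way. It was at 11.1 to 14.3 CPM in GRWT water and 23.2 to 26.9 CPM in GRDim water libraries, a log2 fold change of 1.01 ± 0.11 (SE) with an adjusted p of 4.93e-06 by edgeR. In GRDim mice on zinc it was at 12.1 to 13.6 CPM, a zinc change of -0.9997 ± 0.11 with an adjusted p of 0.000184, which held in each of 12 fits with 1 library left out. The interaction for Tac1 was -0.79 ± 0.15 with an adjusted p of 0.0455, and it was called in 4 of those 12 fits. Tac1 is also made by enteroendocrine cells, and in the muscle-poor libraries its genotype change on water was -0.15.

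Of 9 other glial genes tested, 3 were called lower in GRDim mice on water and none higher, with a median of -0.56. Gpr37l1, a receptor of glia, was at 1.72 ± 0.221 CPM (SD, n = 3) against 0.692 ± 0.0890 CPM, a log2 fold change of -1.28 ± 0.28 (SE) with an adjusted p of 0.00224 by edgeR. Cdh19, a cadherin of glial precursors, was at -0.94. Both lost their calls with the smooth-muscle level added.

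On the ligand side of Ret no gene was called in any comparison. Gdnf was at 2.69 ± 0.772 CPM (SD, n = 3) in GRWT water and 2.03 ± 0.464 CPM in GRDim water libraries, and its zinc changes were -0.07 in GRWT and 0.01 in GRDim mice. Gfra1, the co-receptor that binds GDNF, was at -0.75 ± 0.23 (SE) for genotype on water with an adjusted p of 0.0169 by edgeR, under the fold threshold. Edn3, the endothelin ligand of enteric precursors, was called higher in GRDim mice on water, at 108 to 123 CPM against the 47.4 to 56.3 CPM of GRWT mice (log2 fold change 1.15 ± 0.09, adjusted p = 9.81e-07 by edgeR). Edn3 was at 75.0 to 164 CPM in muscle-poor libraries, where the members other than Ret were nearly absent. Of 11 transmitter targets tested, Tacr2, the neurokinin receptor of gut muscle (-1.01), and Prkg1, the kinase that acts downstream of nitric oxide (-0.83), were called lower in GRDim mice on water and none higher, and none was called for zinc in either genotype. Tacr2 was called in 7 and Prkg1 in 9 of 12 fits with 1 library left out. With the smooth-muscle level added Tacr2 kept its call, at -1.51 with an adjusted p of 0.0219 by edgeR, and Prkg1 lost it, at -0.55 with an adjusted p of 0.132.

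Within the muscle-rich libraries the members varied together to different degrees. Over the 12 libraries Pearson's r of log2 CPM was highest between Vip and S100b, at 0.78, and between Uchl1 and Vip, at 0.74, and lowest between Uchl1 and Gfap, at 0.11. The libraries share their condition means, so these values describe the set and are given without a test. The 5 genes most like the mean of the 6 members above 1 CPM were Zfp36l1 (r = 0.988), Gm43745 (0.957), Ndrg4 (0.9495), D130020L05Rik (0.949) and Zfp760 (0.948), out of 14406 genes ranked over 12 libraries.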

How the data were processed

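The deposited file holds raw read counts for each Ensembl gene. Per the labels, the authors made stranded single-end TruSeq libraries, and their processing notes name Trimmomatic, HISAT2 2.0.4, featureCounts and build mm10. Reads that map to several places were left out of the counts by the authors. The annotation release and strand setting are not given in the sources used here. Gene positions are from GENCODE vM21 (GRCm38). Columns were matched to samples by title, and a pair with 1 shared name were matched to their group only.

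Counts were tested with edgeR 4.0.16 in R 4.3.3 (TMM, filterByExpr by condition, robust quasi-likelihood fits), after tests on simulated data. Thresholds were an adjusted p of 0.05 and a log2 fold change of 0.8. The group sizes given for the experiment match the numbers of libraries, but no label ties a library to a mouse, so p-values measure the spread between libraries. DESeq2 1.42.0, other filters, covariates, sample sets and leaving out each library were the alternatives. The named members of a list are those called, at most 6 for each comparison, and Scg2, Gdnf, Gfra1, Erbb3, L1cam and Entpd2 were also described after their values were seen. Some genes that the rule names are not reported here. The 8 genes, the lists and the tests were chosen with earlier results of these data known. The column totals ran from 13149951 to 15620744 counts, and a group floor of 3 counts was used.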

Additional observations from a re-analysis of the deposited data

Results flagged for a closer look

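Ret stood out in 1 library by the gap between the extreme value and the others. In GRWT zinc ileum replicate 3 it was at 34.9 CPM, where the other 4 GRWT zinc libraries lay between 7.58 and 14.8 CPM, and the same value was far from the other muscle-poor libraries, which lay between 2.12 and 11.05 CPM. That library also had the TMM factor of 0.643, which raises its normalised CPM. Scaled by library total alone, its Ret level was 22.5 CPM, against 6.99 to 15.7 CPM in the other 4 GRWT zinc libraries. The gap rule was not applied on that scale. In GRDim zinc IEC replicate 6 Ret was at 5.22 CPM, below the other 5 GRDim zinc libraries at 9.79 to 11.5 CPM, which mix both muscle contents. Chance alone marks about 1 in 20 of such groups, and 35 were examined.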

How the results depend on the processing

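Values are log2 fold changes by edgeR unless a count is named. DESeq2, its size factors in edgeR, no filter and a stricter filter on low counts moved no count of members called, and Vip and S100b kept their calls for genotype on water in all of them. The 2 called on water became 0 with the smooth-muscle level added, 0 over all libraries with the tissue label as covariate, 0 in the muscle-poor libraries alone and 0 there without GRWT zinc ileum replicate 3 (where only Ret, and neither Vip nor S100b, passed the filter), and 1, Vip, over all numbered libraries with the muscle split and a replicate block. The 0 called for zinc in GRDim mice became 1, Ret, with the smooth-muscle level added, over all libraries with the muscle split when GRWT zinc ileum replicate 3 was left out, and in the muscle-poor libraries without it. Leaving out each library in turn gave 0 to 1 there and 2 on water throughout. Without GRWT zinc ileum replicate 3, an alternative chosen after seeing the data, the pooled ratio of Ret between muscle-rich and muscle-poor libraries moved from 1.52 to 2.08. The cause of these moves was not tested, beyond what each setting adds or removes.

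Signs turned for values near 0 and for larger ones, among them in the muscle-poor libraries, where Tac1, Scg2 and Ret turned. For zinc in GRWT mice, the smooth-muscle level gave -0.023 for Uchl1 and 0.31 for Sox10, the tissue label over all libraries 0.00078 for Vip and -0.044 for Nos1, and the muscle split -0.10 for Nos1 (-0.056 without GRWT zinc ileum replicate 3). For zinc in GRDim mice, Elavl4 was at 0.16 with the smooth-muscle level, 0.82 with the tissue label over all libraries, and 0.075 with the muscle split (0.051 without that library), and Nos1 was at 0.082, at 0.97, and at 0.33 with the tissue label added among muscle-rich libraries. For genotype on water, Elavl4 was at 0.048 with the smooth-muscle level, and the muscle-poor libraries gave 0.0799 for Ret, -0.145 for Tac1 and 0.0588 for Scg2 (0.0796, -0.148 and 0.0614 without that library). For genotype on zinc, the tissue label over all libraries gave 0.29 for Vip, 0.13 for Nos1 and 0.21 for Sox10, the label among muscle-rich libraries 0.23 for Sox10, and leaving out GRWT zinc ileum replicate 3 gave 0.051 for Ret over all libraries and 0.21 among muscle-poor ones. For the interaction, Ret was at -0.28 with the muscle split, -0.19 with the tissue label over all libraries and -1.39 among muscle-poor libraries, Elavl4 at 0.61 with the label over all libraries, Uchl1 at -0.030 with the label among muscle-rich ones, Nos1 at 0.012, 1.01 and 0.31 under the muscle split, the label over all libraries and the label among muscle-rich ones, and Tac1 at 0.81 among muscle-poor libraries (0.26 without GRWT zinc ileum replicate 3).

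Replicate numbers shared by GRWT water and zinc libraries did not pair them, with correlations of -0.084, 0.10 and -0.12 for numbers 1, 4 and 5, and no library correlated best with its own number. With the replicate block in the 6 muscle-rich GRWT libraries 23 genes were called for zinc, against 26. Over all numbered libraries with the muscle split and the replicate block, the zinc values were -0.091 for Nos1 in GRWT and 0.23 for Elavl4, 0.092 for Nos1 and -0.62 for Sox10 in GRDim mice, and the interaction values 0.037 for Elavl4, -0.31 for Ret, 0.18 for Nos1 and -0.19 for Sox10.

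Leaving out each library in turn, zinc in GRWT mice ran from -0.030 to 0.15 for Uchl1, -0.10 to 0.25 for Nos1 and -0.73 to 0.18 for Gfap. Zinc in GRDim mice ran from -0.22 to 0.24 for Elavl4, -0.18 to 0.17 for Nos1 and -0.25 to 0.51 for Sox10. Genotype ran from -0.66 to 0.25 for Gfap on water and from -0.63 to 0.12 for Sox10 on zinc. The interaction ran from -0.39 to 0.067 for Elavl4, -0.063 to 0.12 for Uchl1 and -0.28 to 0.14 for Nos1. Adjusted p-values stayed between 0.000335 and 0.0162 for Vip and between 0.00305 and 0.0207 for S100b for genotype on water.

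Counts of genes called also moved by over 1.5 times. For the interaction it was 42, against 307 by DESeq2, 269 with no filter, 5 to 346 with a library left out, and 0 over all libraries with the muscle split. For zinc in GRDim mice it was 212, against 64 with the tissue label added, 87 over all libraries with the muscle split, 12 over all with the tissue label and 110 to 304 with a library left out. For genotype on water it was 1673, against 897 over all libraries with the muscle split and 224 with the tissue label, and for zinc in GRWT mice 26, against 10 with the smooth-muscle level added and 12 to 37 with a library left out. For genotype on zinc it was 702, against 18 over all libraries with the tissue label. Depth limits the glial genes most: Sox10, Gfap and S100b rest on 3 to 27 reads a muscle-rich library.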
